A study of Mus musculus with 35 samples.

Results

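Mouse tracheas that had been transplanted into MHC-incompatible recipients and removed on day 14 (Allo day 14, 5 arrays) were compared with native tracheas that had not been transplanted (Native, 5 arrays). The comparison took every probe set of the expression array, other than the manufacturer's controls, whose deposited log2 intensity reached 5 in at least 5 of these 10 arrays. Of 22626 non-control probe sets 12248 were kept, of which 11225 carried the symbol of 1 gene, 447 carried several and 576 were unnamed here, and they covered 7559 of the 12393 genes on the array. These 10 arrays are part of a series of 35 arrays in 7 groups of 5, the others being allografts of days 4 and 25 and grafts in MHC-compatible recipients (Iso) of days 4, 14 and 25. All grafts were heterotopic, that is placed outside the airway. The allograft therefore differs from native trachea both in having been transplanted and in the MHC mismatch, which this comparison cannot tell apart. The isografts of day 14 (5 arrays) were set beside it for that reason. Neither strain, sex nor age was given in the sources used here. Nothing said that the 5 samples of a group came from separate animals. P-values rest on the spread between samples within the 7 groups, pooled over all 35 arrays, which may not be a spread between animals.

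The trachea is a tube of cartilage rings and smooth muscle lined by an epithelium of basal, secretory and ciliated cells, with submucosal glands beneath it. When a graft carries foreign MHC molecules, recipient T cells recognise them, differentiate into cytotoxic cells and release interferon-gamma, which makes the surrounding cells display more MHC and secrete chemokines that draw in further leukocytes. Heterotopic tracheal grafts are used as a model of the airway obliteration that follows lung transplantation, in which epithelium is lost and the lumen fills with matrix-producing cells.

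The 10 arrays were on a common scale as deposited, with median log2 intensities of 5.16 to 5.2 in Allo day 14 arrays and 5.18 to 5.27 in Native arrays. A pair of arrays stood somewhat apart from their groups. The median correlation of Allo day 14 replicate 1 with the other arrays of its group was 0.888, against 0.943 to 0.956 for the other 4. That of Native replicate 5 was 0.908, against 0.927 to 0.947. Both were kept, and for some groups the count without them is given as well. The 3′ minus 5′ log2 signal of the Gapdh control probe sets, which grows as RNA is degraded, ran from 0.69 to 3.02 in Allo day 14 arrays and from 0.20 to 2.97 in Native arrays, so the groups overlapped. In bulk tissue, fewer cells of a type and less RNA per cell cannot be told apart, which holds for every difference below.

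Nearly as many genes differed between the allograft and the native trachea as did not. By limma's moderated test with Benjamini-Hochberg adjustment over the 12248 probe sets, 5648 were called at an adjusted p under 0.05 (46.1%), 2594 of them higher in Allo day 14 arrays (21.2%) and 3054 lower (24.9%). Leaving out both arrays that stood apart gave 2711 higher and 3397 lower. At least 2-fold differences made up 2931 of the calls, and 98 probe sets were higher and 119 lower by at least 16-fold. The 5 Allo day 14 values lay wholly outside the range of the 5 Native values for 3375 probe sets (27.6%). Over genes, each represented by its brightest single-gene probe set, 3634 of 7559 were called (48.1%), 1576 higher (20.8%) and 2058 lower (27.2%), with a median log2 difference of -0.11. The counts given below for groups of genes are to be read against these shares, since close to 1 gene in 2 was called.

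The balance of rises and falls depended on the scale. When each array was centred on the median level of 17 reference genes chosen for steady expression, every difference moved by 0.29 towards the allograft. Then 3451 of 5069 called probe sets were higher (68.1%, against 45.9% as deposited). Over the 17 genes themselves the median difference as deposited was -0.03, with 3 called higher, 1 lower and 13 not called. The shift is therefore not their typical difference. Whether a small fall passed depended on that choice. Some calls also followed from the filter. Of the probe sets kept, 256 passed through the Allo day 14 arrays alone, all of them called higher, and 250 through the Native arrays alone, all called lower. Just inside the filter, 705 probe sets reached a log2 intensity of 5 in 5 arrays with a median mean of 5.14, and just outside it 418 did so in 4 arrays with a median of 4.87.

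**Figure D1:**
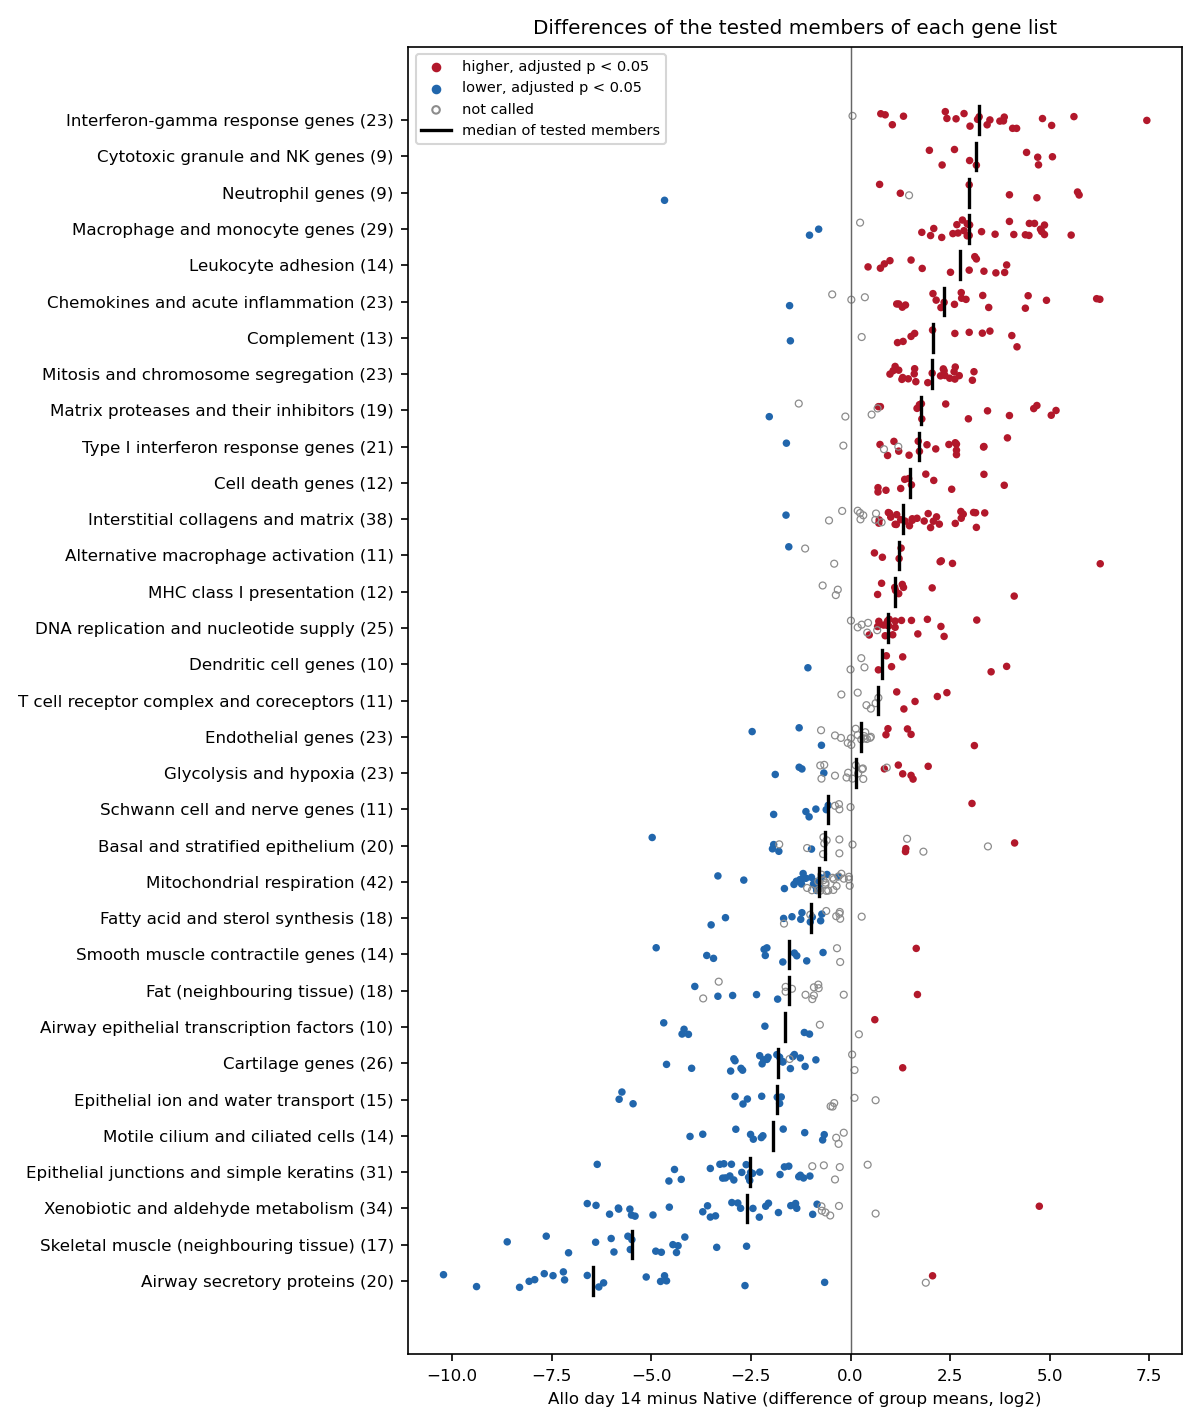
Log2 difference, Allo day 14 minus Native (horizontal axis), for the tested members of each gene group (rows), with 1 point per gene and a bar at the group's median. Interferon-gamma response genes lie around a median of 3.23 and airway secretory proteins around -6.46, whereas the median over all 7559 genes tested is -0.11.

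Genes of cytotoxic lymphocytes were far higher in the allograft. All 9 tested genes of the cytotoxic granule and natural killer list rose, with a median log2 difference of 3.16, but 5 of the 9 had passed the filter through the Allo day 14 arrays alone. Without any filter, 19 of the 21 on the array rose, where 19.3% of all 12393 genes rose and 19.8% fell. Granzyme B (Gzmb), the protease that cytotoxic cells deliver into their targets, had log2 intensities of 7.82, 8.60, 8.68, 8.56 and 9.09 in Allo day 14 arrays, against 3.68, 3.88, 3.80, 3.83 and 3.97 in Native arrays. The groups were nearly 4 log2 units apart at their closest. The difference was 4.72 ± 0.28 (SE; limma adjusted p = 1.01e-14), or 26.3-fold.

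The chemokine Ccl5, which activated T cells secrete, was higher by 5.07 ± 0.38, and Nkg7, a protein of the cytotoxic granule membrane, by 4.70 ± 0.30. Of 11 tested genes of the T cell receptor complex and its coreceptors, 5 rose, none fell and 6 did not pass, with a median of 0.70, and 7 rose without the arrays that stood apart. Cd3e, a signalling chain of the receptor, had 4.77, 5.36, 5.77, 6.81 and 6.45 in Allo day 14 arrays, against 4.81, 4.42, 5.08, 4.57 and 4.48 in Native arrays. Replicate 1 of the allograft lay within the Native range, and the other 4 lay above it. The difference was 1.16 ± 0.28 (adjusted p = 0.00099). Cd3d, another chain, rose by 2.42 ± 0.48 and the T cell surface protein Thy1 by 2.18 ± 0.33.

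Cd8a, the coreceptor of cytotoxic T cells, did not pass the test, with 5.25, 5.40, 5.76, 5.42 and 5.72 in Allo day 14 arrays, against 5.36, 3.74, 6.51, 4.74 and 4.65 in Native arrays (difference 0.51 ± 0.31, adjusted p = 0.171). Native replicate 3 was the highest of all 10, and without it the difference was 0.89 and passed (adjusted p = 0.00681). The whole T cell list summed to between 1172 and 2187 in Allo day 14 arrays, and to between 433 and 1419 in Native arrays, with a median of 539 and the highest sum in Native replicate 3. The part of lymphoid tissue in that array was not tested.

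Genes of the interferon-gamma pathway rose in large part. Ifng itself stayed under the filter, with 4.42, 5.09, 5.54, 5.74 and 5.34 in Allo day 14 arrays, against 2.50, 2.84, 2.67, 2.77 and 3.08 in Native arrays. Every allograft value lay above every native one. Without a filter the difference was 2.46 ± 0.22 (adjusted p = 2.12e-10). All 6 tested genes of the signalling chain rose, among them the transcription factors Irf1 by 1.68 ± 0.18 and Irf8 by 3.12 ± 0.36, and the feedback inhibitor Socs3 by 2.92. Without the arrays that stood apart 4 of the 6 rose.

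Of 23 tested interferon-gamma response genes 22 rose and none fell, with a median of 3.23, and only 4 had passed the filter through the allograft arrays alone. The same number rose without the arrays that stood apart. Their summed linear level ran from 14027 to 22262 in Allo day 14 arrays and from 1595 to 2460 in Native arrays. Cxcl9, a chemokine for activated T cells, had 10.76, 11.38, 10.96, 11.20 and 11.13 in Allo day 14 arrays, against 3.35, 3.50, 4.21, 3.50 and 3.70 in Native arrays. The values of each group lay within 1 log2 unit, and the difference of 7.44 ± 0.41 (adjusted p = 1.66e-15) was second in size among all rises of the rule for named genes.

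Ubd, a ubiquitin-like modifier, was higher by 5.05 ± 0.21 (adjusted p = 1.26e-18). Ido1, an enzyme that degrades tryptophan and thereby restrains T cells, had 8.64, 8.76, 8.37, 7.46 and 5.62 in Allo day 14 arrays, against 2.01, 2.21, 1.93, 2.23 and 2.44 in Native arrays. Replicate 5 was well below the rest of the allografts and still above every Native array. Gch1 was the response gene that did not pass, at 0.05 (adjusted p = 0.907).

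Promoters of this group were read from RefSeq (GRCm38.p6), each window running from 250 bases before to 50 bases after the annotated start. RefSeq windows were found for 16 of the 23 tested genes (19 windows). The core of the interferon-stimulated response element, GAAA, any 2 bases and GAAA on either strand, was present in 8 of the 19 (42.1%), against 3.44% of all 32851 windows. The gamma-activated site, TTCNNNGAA, was present in 4 (21.1%), against 8.3% of all windows. A match describes the letters and does not show a bound site. The choice of windows to show was made after the values were seen and did not draw on every chromosome. Within that limit, the windows below belong to the 4 genes with the largest differences among those holding the response element core. These windows show where that motif lies. They are those of Cxcl10 at chr5:92348840-92349139 (minus strand), Gbp2 at chr3:142620413-142620712 (plus strand), Igtp at chr11:58199306-58199605 (plus strand) and Irgm2 at chr11:58214727-58215026 (plus strand). Each is written 5′ to 3′ along the gene, and capitals mark both motifs.
Cxcl10: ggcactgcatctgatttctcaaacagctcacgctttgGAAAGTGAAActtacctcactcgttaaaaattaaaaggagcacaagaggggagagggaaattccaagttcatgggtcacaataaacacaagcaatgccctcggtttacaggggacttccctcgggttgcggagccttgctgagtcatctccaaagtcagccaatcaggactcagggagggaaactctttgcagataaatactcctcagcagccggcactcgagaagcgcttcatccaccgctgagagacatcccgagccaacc
Gbp2: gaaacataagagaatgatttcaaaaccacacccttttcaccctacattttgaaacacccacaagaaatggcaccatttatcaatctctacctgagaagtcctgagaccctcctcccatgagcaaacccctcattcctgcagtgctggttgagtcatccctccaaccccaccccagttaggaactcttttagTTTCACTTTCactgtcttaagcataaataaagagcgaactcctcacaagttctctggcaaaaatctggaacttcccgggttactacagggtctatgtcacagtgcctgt
Igtp: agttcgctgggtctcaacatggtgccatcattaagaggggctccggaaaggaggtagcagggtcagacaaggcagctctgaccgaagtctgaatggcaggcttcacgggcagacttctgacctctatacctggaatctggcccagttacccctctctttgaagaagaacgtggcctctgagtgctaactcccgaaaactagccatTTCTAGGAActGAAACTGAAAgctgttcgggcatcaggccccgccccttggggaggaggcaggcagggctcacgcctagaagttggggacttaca
Irgm2: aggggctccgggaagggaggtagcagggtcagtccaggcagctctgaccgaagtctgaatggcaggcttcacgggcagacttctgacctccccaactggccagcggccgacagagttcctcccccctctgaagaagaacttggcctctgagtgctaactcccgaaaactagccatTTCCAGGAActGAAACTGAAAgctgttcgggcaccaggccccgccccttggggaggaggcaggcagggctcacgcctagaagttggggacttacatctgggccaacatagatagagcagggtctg

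Cxcl10, a chemokine that shares its receptor with Cxcl9, averaged 9.93 in Allo day 14 arrays and 5.76 in Native arrays (difference 4.17 ± 0.39). The guanylate-binding protein Gbp2, which attacks the membranes around intracellular pathogens, averaged 10.96 in Allo day 14 arrays and 6.88 in Native arrays (4.07 ± 0.31). The immunity-related GTPases Igtp and Irgm2 were higher by 3.75 ± 0.29 and 3.43 ± 0.30. The windows of Igtp and Irgm2 hold a gamma-activated site and the response element core 2 bases apart, whereas those of Cxcl10 and Gbp2 hold the core alone.

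Genes induced by type I interferon rose too, at 17 of 21 tested with a median of 1.73, and 2 had passed the filter through the allograft arrays alone. Trim30a, a regulator of inflammatory signalling, was higher by 3.94, and Ifit3 by 3.34. The exonuclease gene Isg20 was the exception and fell by 1.61 (adjusted p = 0.00152). Many genes answer to both kinds of interferon, so the lists are not separate measures.

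The machinery that loads peptides onto MHC molecules was higher. In the class I pathway 9 of 12 tested genes rose and none fell, with a median of 1.12. Tap1, a subunit of the transporter that carries peptides into the endoplasmic reticulum, had 9.05, 9.62, 9.82, 9.5 and 9.43 in Allo day 14 arrays, against 5.23, 5.67, 6.05, 4.59 and 5.32 in Native arrays. The lowest allograft array was 3 log2 units above the highest native one (difference 4.11 ± 0.28, adjusted p = 2.9e-13). The class I heavy chain H2-K1 was nearly constant in the allograft, between 11.96 and 12.05, and lay between 9.94 and 11.13 in Native arrays. It differed by 1.33 ± 0.20, whereas 1 of its other probe sets gave 0.24 and did not pass. Probe sets of the class I heavy chains can share signal, since their sequences are alike.

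In the class II pathway 7 of 8 tested genes rose, with a median of 2.62. H2-Ab1, the beta chain of the I-A molecule, was higher by 2.67 ± 0.23, and H2-DMa, which helps peptides to load, by 3.81 ± 0.42. Ctss, the protease that trims the invariant chain, was between 12.83 and 13.26 in Allo day 14 arrays and between 8.16 and 9.07 in Native arrays, 4.31 ± 0.22 apart. H2-Ea, the alpha chain of the I-E molecule, which mice of some MHC haplotypes do not make, went the other way. It had 7.49, 6.92, 7.51, 7.78 and 7.05 in Allo day 14 arrays, against 7.93, 8.18, 8.09, 8.44 and 7.95 in Native arrays. The groups did not overlap, but the fall of 0.77 (adjusted p = 0.00367) did not pass when arrays were centred on reference genes. A second tested probe set of H2-Ea averaged 5.65 in Allo day 14 arrays and 8.92 in Native arrays, a larger difference of -3.27 ± 0.51 (limma adjusted p = 3.07e-06).

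Genes that restrain T cells were mostly dim, and only 4 of 14 on the array were tested. All 4 rose, and 3 without the arrays that stood apart. Of the 4, Cd274 had passed the filter through the Allo day 14 arrays alone. Without any filter 13 of the 14 rose. Cd274, which encodes the ligand PD-L1, had 8.02, 8.28, 7.84, 8.42 and 7.95 in Allo day 14 arrays, against 3.95, 3.71, 4.43, 3.95 and 3.45 in Native arrays. The values of each group lay within 1 log2 unit of each other and the groups were far apart (4.21 ± 0.43, adjusted p = 1.34e-09).

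**Figure D2:**
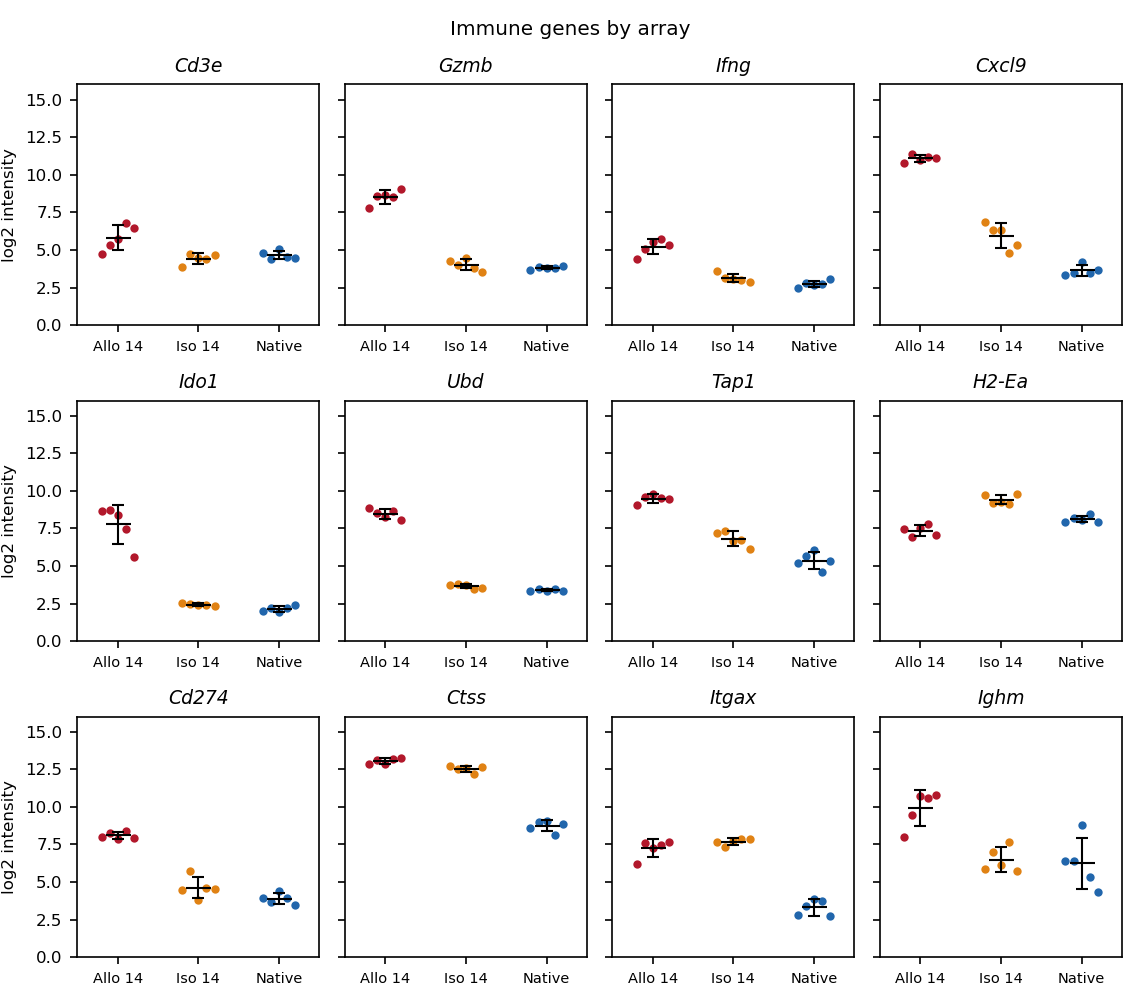
Log2 intensity of 12 immune genes in each Allo day 14, Iso day 14 and Native array (points), with the mean and SD of each group of 5. Gzmb, Ubd and Ido1 are near their Native level in isografts, whereas Ctss and Itgax in isografts lie close to the allograft.

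Macrophage genes rose almost throughout. Of 29 tested genes of the macrophage and monocyte list 26 rose and 2 fell, with a median of 2.98, and 9 had passed the filter through the allograft arrays alone. Clec4d, a C-type lectin that senses fungal and mycobacterial lipids, was higher by 5.54 ± 0.46. Aif1, a calcium-binding protein of activated macrophages, was between 9.35 and 10.04 in Allo day 14 arrays and between 4.58 and 5.12 in Native arrays (4.87 ± 0.34). Cd14, the coreceptor for bacterial lipopolysaccharide, fell by 1.03 (adjusted p = 0.0109), which did not pass with reference centring.

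Arg1, an enzyme that consumes arginine in alternatively activated and suppressive myeloid cells, had 10.06, 10.69, 10.09, 9.97 and 9.02 in Allo day 14 arrays, against 3.40, 2.49, 3.81, 3.36 and 5.40 in Native arrays. The difference was 6.27 ± 0.95 (adjusted p = 2.29e-06), the largest of its list, in which 8 of 11 tested genes rose, Il4ra by 2.56 among them, and 2 had passed the filter through the allograft arrays alone. The signalling inhibitor Socs2 fell by 1.55.

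Neutrophil genes rose at 7 of 9 tested, 2 of them having passed the filter through the allograft arrays alone. S100a8, which forms calprotectin together with S100a9, had 8.19, 10.17, 9.19, 9.77 and 10.86 in Allo day 14 arrays, against 3.86, 4.79, 3.46, 3.88 and 3.50 in Native arrays. The groups lay more than 3 log2 units apart, with replicate 1 the lowest of the allograft (difference 5.74 ± 0.66). The formyl peptide receptor gene Fpr2 was higher by 5.70 ± 0.59. Ltf, which encodes lactoferrin and is made by airway glands as well as neutrophils, fell by 4.67 ± 0.53. Among mast cell genes 3 of 4 tested fell, with the protease Cpa3 lower by 1.36 and the histamine-forming enzyme Hdc by 1.71.

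Dendritic cell genes rose at 6 of 10 tested, 3 of them having passed the filter through the allograft arrays alone. The integrin Itgax was higher by 3.92 ± 0.38 and the actin-bundling protein Fscn1 by 3.53. Cst3, an inhibitor of cysteine proteases, fell by 1.07.

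Chemokines and acute inflammatory genes rose at 19 of 23 tested, with a median of 2.35, and 4 had passed the filter through the allograft arrays alone. Ccl8, a chemokine for monocytes and T cells, was between 11.47 and 12.76 in Allo day 14 arrays and between 4.97 and 6.45 in Native arrays (6.26 ± 0.49). Saa3, an acute phase protein, was between 9.97 and 11.63 in Allo day 14 arrays and between 4.17 and 5.06 in Native arrays (6.18 ± 0.77). The membrane-bound chemokine Cx3cl1, which had passed the filter through the Native arrays alone, fell by 1.53.

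Complement genes rose at 11 of 13 tested, 1 of them having passed the filter through the allograft arrays alone. C1qb, a chain of the recognition molecule C1q, was between 11.52 and 12.50 in Allo day 14 arrays and between 7.75 and 8.30 in Native arrays, 4.18 ± 0.25 apart. Cd55, which protects cells from complement, fell by 1.51, although its other tested probe set, at -0.41, did not pass. All 14 tested genes of leukocyte adhesion rose, with the beta-2 integrin Itgb2 higher by 3.87, and 13 rose without the arrays that stood apart. Of the 14, 1 had passed the filter through the allograft arrays alone. All 12 tested cell death genes rose, with a median of 1.49, and 1 had passed the filter through the allograft arrays alone. Ripk3, the kinase that drives necroptosis, was higher by 3.86 ± 0.31 and Zbp1, a nucleic acid sensor that activates it, by 3.35 ± 0.26.

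Of 7 tested genes of B cells and immunoglobulins 4 rose, 2 fell and 1 did not pass. Ighm, the heavy chain of IgM, had 8, 9.46, 10.69, 10.60 and 10.81 in Allo day 14 arrays, against 6.42, 6.38, 8.82, 5.32 and 4.32 in Native arrays. Igha, the heavy chain of the IgA found at mucosal surfaces, had 5.39, 6.94, 7.96, 9.27 and 7.85 in Allo day 14 arrays, against 11.31, 11.53, 11.80, 10.06 and 8.04 in Native arrays. Both groups were widely spread and overlapped for each gene, through Native replicate 3 for Ighm and Native replicate 5 for Igha. Ighm differed by 3.66 ± 0.76 (adjusted p = 0.000212), with smaller rises of 0.96 and 0.97 at a further pair of its tested probe sets that did not pass. Igha fell by 3.06 ± 0.78 (adjusted p = 0.00179). Ighg3, an IgG heavy chain, rose by 1.70 (adjusted p = 0.00358), and Cd79b, a signalling part of the B cell receptor, by 1.14.

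Genes of dividing cells were higher. All 23 tested genes of mitosis and chromosome segregation rose, with a median of 2.05, and 6 of them had passed the filter through the allograft arrays alone. Without a filter 35 of the 38 on the array rose. Birc5, a subunit of the chromosomal passenger complex, had 6.33, 7.14, 7.05, 7.09 and 7.06 in Allo day 14 arrays, against 3.58, 3.05, 4.87, 3.10 and 4.78 in Native arrays. The groups did not overlap, and replicate 1 was the lowest of the allograft (3.06 ± 0.44, adjusted p = 8.38e-07). Of 25 tested genes of DNA replication 19 rose and none fell, with the ribonucleotide reductase subunit Rrm2 higher by 3.17 ± 0.41 and the helicase subunit Mcm6 by 2.27. Of the 25, 2 had passed the filter through the allograft arrays alone.

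RefSeq windows were found for 21 of the 23 mitosis genes (23 windows). The cell cycle homology region, TTTGAA on either strand, was present in 20 of them (87%), against 17.9% of all windows. The NF-Y box CCAAT was present in 19 (82.6%), against 37.4%, and in 10 of 11 windows of class I presentation genes (90.9%). The 3 windows shown were again chosen after the values were seen, without drawing on every chromosome. Within that limit, they are those of the genes with the largest differences among those with a cell cycle homology region. They lie at chr10:69352863-69353162 (minus strand) for Cdk1, chr11:99024140-99024439 (minus strand) for Top2a and chr7:135716330-135716629 (minus strand) for Mki67. Capitals mark both motifs.
Cdk1: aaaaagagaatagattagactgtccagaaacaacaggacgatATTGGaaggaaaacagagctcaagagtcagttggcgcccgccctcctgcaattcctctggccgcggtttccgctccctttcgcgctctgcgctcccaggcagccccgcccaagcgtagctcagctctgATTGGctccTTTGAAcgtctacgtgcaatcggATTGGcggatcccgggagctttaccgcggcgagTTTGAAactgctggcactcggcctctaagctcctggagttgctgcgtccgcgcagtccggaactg
Top2a: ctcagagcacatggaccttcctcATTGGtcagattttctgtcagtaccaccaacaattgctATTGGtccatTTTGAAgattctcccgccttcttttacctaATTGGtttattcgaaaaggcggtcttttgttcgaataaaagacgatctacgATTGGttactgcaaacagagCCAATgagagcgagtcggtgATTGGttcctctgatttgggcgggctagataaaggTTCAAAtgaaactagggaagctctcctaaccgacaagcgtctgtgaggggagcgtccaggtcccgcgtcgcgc
Mki67: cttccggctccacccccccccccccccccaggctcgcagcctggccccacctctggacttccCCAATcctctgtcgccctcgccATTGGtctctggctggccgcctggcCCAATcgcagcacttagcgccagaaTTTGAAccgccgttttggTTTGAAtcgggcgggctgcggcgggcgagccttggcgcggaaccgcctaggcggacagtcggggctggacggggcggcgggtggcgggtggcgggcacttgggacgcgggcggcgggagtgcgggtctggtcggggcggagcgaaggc

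Each of these windows holds 2 cell cycle homology regions, together with 3 NF-Y boxes in Cdk1 and Mki67 and 6 in Top2a. Cdk1, the kinase that starts mitosis, averaged 7.96 in Allo day 14 arrays and 4.86 in Native arrays (3.10 ± 0.40). Top2a, which untangles chromosomes, averaged 7.14 in Allo day 14 arrays and 4.41 in Native arrays (2.73 ± 0.43). The proliferation marker Mki67 averaged 8.04 in Allo day 14 arrays and 5.41 in Native arrays (2.63 ± 0.41).

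The secretory products of the airway were far lower in the allograft. Of 20 tested secretory protein genes 18 fell, 1 rose and 1 did not pass, with a median of -6.46, and 4 had passed the filter through the Native arrays alone. Scgb1a1, the main product of club cells, had 9.15, 4.49, 6.43, 6.93 and 6.78 in Allo day 14 arrays, against 14.43, 14.48, 14.36, 14.53 and 14.41 in Native arrays. The Native arrays agreed within 0.2 and the allografts spread over more than 4 log2 units without reaching them. The fall was -7.69 ± 0.53 (adjusted p = 2.9e-13). Bpifa1, an antimicrobial surfactant protein of the upper airway, had 8.92, 6.34, 7.44, 6.94 and 4.91 in Allo day 14 arrays, against 14.74, 14.97, 14.51, 15.04 and 14.94 in Native arrays (-7.93 ± 0.43).

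Lipf, a gastric-type lipase, had 1.72, 1.80, 1.84, 1.87 and 1.80 in Allo day 14 arrays, against 13.07, 13.25, 13.20, 13.17 and 13.75 in Native arrays. This fall of -11.48 ± 0.44 was the largest of any named gene, and its size depends on where the background correction behind the deposited values puts an undetected probe set. Lipf had passed the filter through the Native arrays alone. Dcpp1, a demilune cell protein of mucous glands, lay between 3.96 and 4.93 in Allo day 14 arrays and between 13.50 and 14.48 in Native arrays, and the scavenger protein Dmbt1 lay between 2.76 and 2.86 in Allo day 14 arrays and between 12.79 and 13.28 in Native arrays. The single rise was that of Lcn2, which encodes an iron-trapping protein that epithelium and neutrophils make under inflammation, by 2.06 (adjusted p = 0.00592). Its 7.14, 7.12, 7.26, 7.48 and 10.20 in Allo day 14 arrays stood against 6.41, 7.17, 5.87, 5.45 and 4.04 in Native arrays, and without replicate 5 of the allograft the difference was 1.46.

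Transcription factors of the airway epithelium fell at 7 of 10 tested, 2 of them having passed the filter through the Native arrays alone. Foxa1, which opens chromatin for epithelial genes, had 5.40, 4.67, 5.46, 4.43 and 3.71 in Allo day 14 arrays, against 9.19, 9.82, 9.98, 9.28 and 8.86 in Native arrays. Sox2, needed for the identity of the proximal airway, averaged 3.75 ± 0.57 in Allo day 14 arrays and 7.93 ± 0.37 in Native arrays (SD). Foxa1 differed by -4.69 ± 0.38 and Sox2 by -4.18 ± 0.35, and no array of the allograft reached the native range for either. Grhl2, a regulator of epithelial junction genes, was called higher at its brightest probe set by 0.61 and lower at another by 2.20, so its direction is not settled.

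Genes of ciliated cells fell at 11 of 14 tested and none rose, with a median of -1.95, and 4 had passed the filter through the Native arrays alone. Without a filter 16 of 23 fell, with a median of -1.15. Foxj1, the transcription factor that starts the motile cilium programme, had 4.55, 4.62, 4.24, 5.05 and 4.22 in Allo day 14 arrays, against 9.14, 7.94, 7.89, 7.06 and 5.06 in Native arrays. Native replicate 5 was almost level with the highest allograft array. The fall was -2.88 ± 0.45 (adjusted p = 3.93e-06), and -3.47 without that array. Tppp3, a tubulin-binding protein of cilia, was lower by 4.03 ± 0.45. A shortened form of the RFX factors' X-box was searched on either strand, as GTT, any base, CC, any 2 bases, G, any base and AAC. It was found in none of the 13 windows of the tested cilium genes with a RefSeq window and in 0.673% of all windows. The pattern holds a single fixed G after its 2 free bases, whereas the full site holds GG there and was not searched. The count therefore does not show that these promoters lack X-boxes.

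Of 20 tested genes of basal and stratified epithelium 3 rose, 5 fell and 12 did not pass, with 2 kept through the Native arrays alone, and 5 rose and 5 fell without the arrays that stood apart. Krt5, the defining keratin of basal cells, had 8.88, 9.54, 9.54, 8.23 and 6.41 in Allo day 14 arrays, against 9.46, 8.92, 8.83, 8.18 and 10.60 in Native arrays. The groups overlapped over most of their range (-0.68 ± 0.59, adjusted p = 0.355), with replicate 5 of the allograft below the rest. Krt15, a keratin of resting basal cells, had 6.40, 4.68, 6.04, 4.07 and 2.61 in Allo day 14 arrays, against 10.96, 9.49, 9.91, 8.89 and 9.45 in Native arrays, a fall of -4.98 ± 0.62. Krt6a, a keratin of wounded and stratified epithelium, had 9.81, 10.80, 10.33, 9.14 and 7.52 in Allo day 14 arrays, against 7.14, 4.62, 4.26, 2.1 and 8.88 in Native arrays. It rose by 4.12 ± 1.32 (adjusted p = 0.0114), although its 2 groups overlapped, and a further tested probe set at 1.80 did not pass. Within the allograft, replicate 5 was lowest for all 3 keratins. Native replicate 5, highest for Krt5 and Krt6a, also had the skin protein Lor at 11.94, against 2.48 to 3.09 in the other Native arrays, and the part of skin in its keratin values was not tested.

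**Figure D3:**
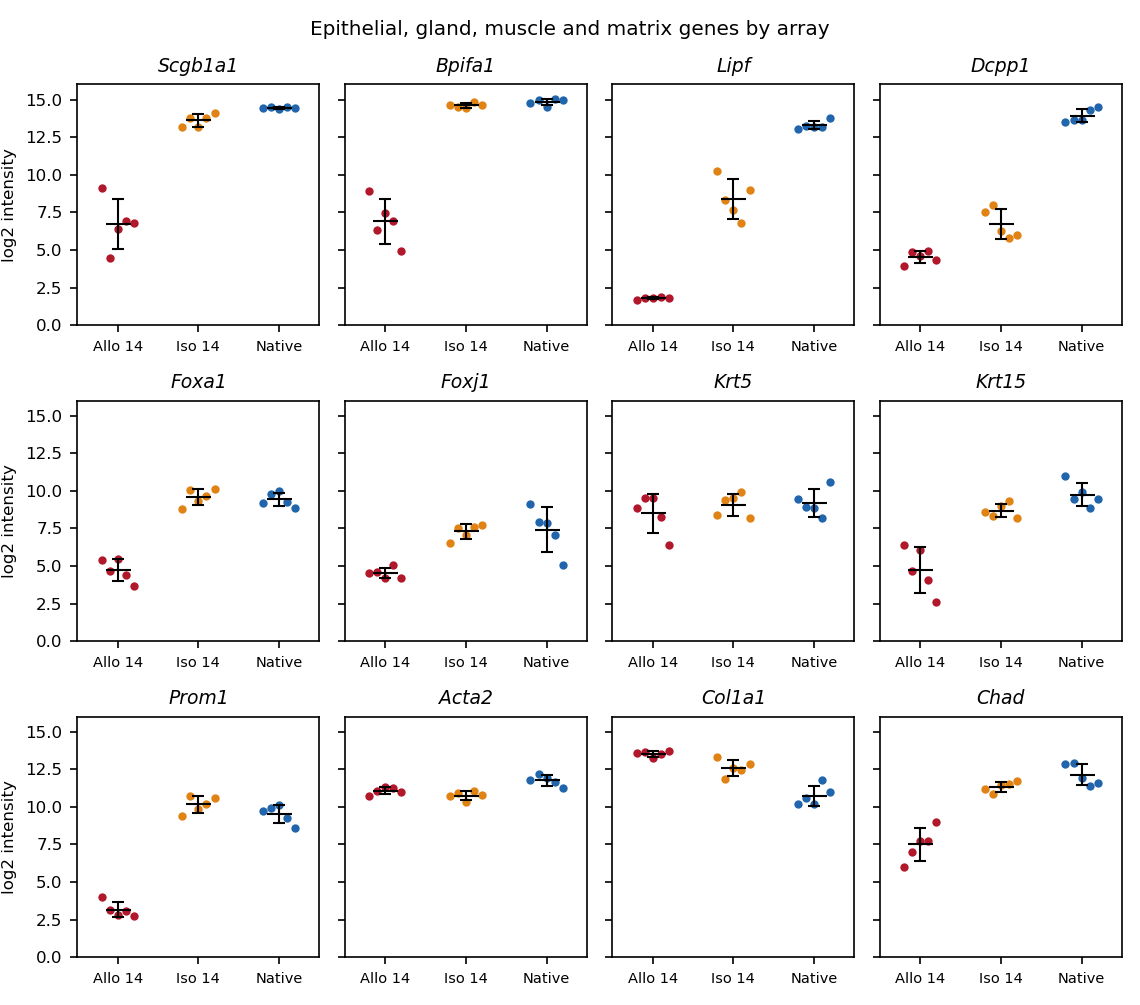
Log2 intensity of 12 epithelial, gland, muscle and matrix genes in each Allo day 14, Iso day 14 and Native array (points), with the mean and SD of each group of 5. Scgb1a1, Bpifa1, Foxa1 and Prom1 in isografts lie near the native trachea and far above the allograft, Krt5 overlaps in all 3 groups, and Dcpp1 is low in both grafts.

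Junction proteins and keratins of simple epithelium fell at 26 of 31 tested and none rose, with a median of -2.53, and 7 had passed the filter through the Native arrays alone. Prom1, a protein of apical membrane protrusions, was between 2.75 and 4.03 in Allo day 14 arrays and between 8.61 and 10.15 in Native arrays, 6.36 ± 0.58 lower. The epithelial adhesion molecule Epcam fell by 4.56 ± 0.47, with 7.44 in replicate 1 and 3.99 in replicate 5 of the allograft at the ends of its range. Esrp1, the splicing factor of epithelial cells, fell by 4.42.

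Ion and water transport genes fell at 10 of 15 tested, 3 of them having passed the filter through the Native arrays alone. Without a filter 12 of 27 fell and 1 rose, with a median of -0.54. Atp1b1, the beta subunit of the sodium pump, was between 5.70 and 6.77 in Allo day 14 arrays and between 11.64 and 12.06 in Native arrays (-5.74 ± 0.44). The potassium channel Kcnk1 and the peptide transporter Slc15a2 fell by 5.46 and 5.81. Enzymes of xenobiotic and aldehyde metabolism, in which club cells are rich, fell at 27 of 34 tested, with a median of -2.61, and 5 had passed the filter through the Native arrays alone. The paraoxonase Pon1 fell by 6.61, the sulfotransferase Sult1d1 by 6.39 and the aldehyde oxidase Aox3 by 6.05. Cyp1b1, a cytochrome P450 of stromal cells, was the single rise of that list, at 9.35, 10.53, 10.92, 11.17 and 11.32 in Allo day 14 arrays, against 5.96, 6.12, 6.65, 5.54 and 5.31 in Native arrays (4.74 ± 0.34).

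Matrix genes were higher, with a few exceptions. Of 38 tested genes of collagens and interstitial matrix 28 rose and 1 fell, with a median of 1.31, and none had passed the filter through a single group. Col1a1, a chain of type I collagen, had 13.57, 13.63, 13.24, 13.48 and 13.73 in Allo day 14 arrays, against 10.19, 10.57, 10.18, 11.79 and 10.98 in Native arrays. Every allograft array lay above every native one, and the difference was 2.78 ± 0.31 (adjusted p = 1.01e-08). A further tested probe set of Col1a1 gave -0.85 and did not pass. Tgfbi, an adhesion protein induced by TGF-beta, was higher by 3.37 ± 0.28, and thrombospondin 2 (Thbs2) by 3.16 ± 0.27. Elastin (Eln), the protein of recoiling fibres, fell, with 7.41, 7.61, 6.71, 7.42 and 7.97 in Allo day 14 arrays, against 8.36, 8.80, 8.50, 10.14 and 9.40 in Native arrays (-1.62 ± 0.29).

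Matrix proteases and their inhibitors rose at 14 of 19 tested, 1 of them having passed the filter through the allograft arrays alone. The stromelysin Mmp3 was higher by 5.16 ± 0.42, the macrophage elastase Mmp12 by 5.04 ± 0.45 and the membrane protease Adam12 by 4.68 ± 0.39. Timp3, an inhibitor of metalloproteases that binds to matrix, fell by 2.04 ± 0.35.

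Smooth muscle contractile genes fell at 11 of 14 tested, with a median of -1.55, and 1 had passed the filter through the Native arrays alone. Calponin (Cnn1) had 3.84, 4.00, 4.03, 4.22 and 3.86 in Allo day 14 arrays, against 9.55, 9.34, 8.67, 9.41 and 7.39 in Native arrays (-4.88 ± 0.52). Smooth muscle actin (Acta2), which myofibroblasts also make, had 10.72, 11.03, 11.34, 11.23 and 10.99 in Allo day 14 arrays, against 11.79, 12.19, 11.89, 11.64 and 11.22 in Native arrays. Its groups overlapped, and the fall of 0.69 (adjusted p = 0.0135) did not pass with reference centring. Caldesmon (Cald1), which occurs in muscle and other cells, rose by 1.65.

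Cartilage genes fell at 22 of 26 tested, with a median of -1.82, and at 17 without the arrays that stood apart. Of the 26, 1 had passed the filter through the Native arrays alone. Chondroadherin (Chad) had 6.02, 7.01, 7.74, 7.76 and 8.98 in Allo day 14 arrays, against 12.85, 12.91, 11.91, 11.39 and 11.57 in Native arrays (-4.62 ± 0.48). Col2a1, the main collagen of cartilage, had 7.97, 10.31, 9.35, 8.44 and 10.80 in Allo day 14 arrays, against 10.98, 11.36, 9.56, 12 and 11.48 in Native arrays. The groups overlapped, and its fall of 1.70 (adjusted p = 0.0134) became 1.35 and did not pass without replicate 1 of the allograft (adjusted p = 0.051).

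Endothelial genes were mostly not called. Of 23 tested 5 rose and 3 fell, with a median of 0.27, and 1 had passed the filter through the allograft arrays alone. The apelin receptor (Aplnr) was between 10.70 and 11.03 in Allo day 14 arrays and between 6.32 and 9.11 in Native arrays (3.11 ± 0.31), and Lyve1, a marker of lymphatic vessels, fell by 2.47 ± 0.49. Among 11 tested genes of Schwann cells and nerve 6 fell, S100b by 1.93, while the neural cell adhesion molecule Ncam1 rose by 3.05 ± 0.39.

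Markers of tissues that lie next to the trachea were high in Native arrays and low in allografts. Thyroglobulin (Tg), the hormone precursor of the thyroid, had 4.66, 3.98, 3.97, 3.50 and 4.00 in Allo day 14 arrays, against 14.36, 14.42, 14.36, 14.49 and 14.68 in Native arrays. Parathyroid hormone (Pth) lay between 2.41 and 3.27 in Allo day 14 arrays and between 12.42 and 13.12 in Native arrays. The thyroid and parathyroid list summed to between 137 and 182 in Allo day 14 arrays and to between 27699 and 34797 in Native arrays, and 4 of its 6 tested genes fell, all 4 having passed the filter through the Native arrays alone. All 17 tested skeletal muscle genes fell, 9 of them having passed the filter through the Native arrays alone. Skeletal actin (Acta1) had 4.44, 5.66, 3.30, 4.01 and 2.32 in Allo day 14 arrays, against 10.33, 10.10, 11.76, 12.28 and 13.44 in Native arrays. The muscle list summed to between 381 and 740 in Allo day 14 arrays and to between 5817 and 94217 in Native arrays. In Iso day 14 arrays, which are grafts too, Tg averaged 12.39, Pth 11.63 and Acta1 9.06. Against isografts 4 of the 6 thyroid and parathyroid genes and 12 of the 17 muscle genes were lower in allografts, and none was higher. The part of these tissues in other falls, such as those of metabolic genes, was not tested.

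Fat genes varied among the Allo day 14 arrays instead, where the SD of Ucp1 was 4.17, against 0.79 in Native arrays. Ucp1, the uncoupling protein of brown fat, had 13.42, 10.16, 3.81, 7 and 3.79 in Allo day 14 arrays, against 11.07, 10.65, 11.59, 11.67 and 9.75 in Native arrays. Replicates 1 and 2 of the allograft were within or above the native range and the other 3 were below it. The difference of -3.31 ± 1.59 did not pass (adjusted p = 0.0866), and without replicate 1 it was -4.75 (adjusted p = 0.0107). Of 18 tested fat genes 5 fell and 1 rose, and 12 fell without the arrays that stood apart. The list's summed level was 83285 in replicate 1 of the allograft, against a group median of 16679 and a Native range of 37818 to 58040.

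**Figure D4:**
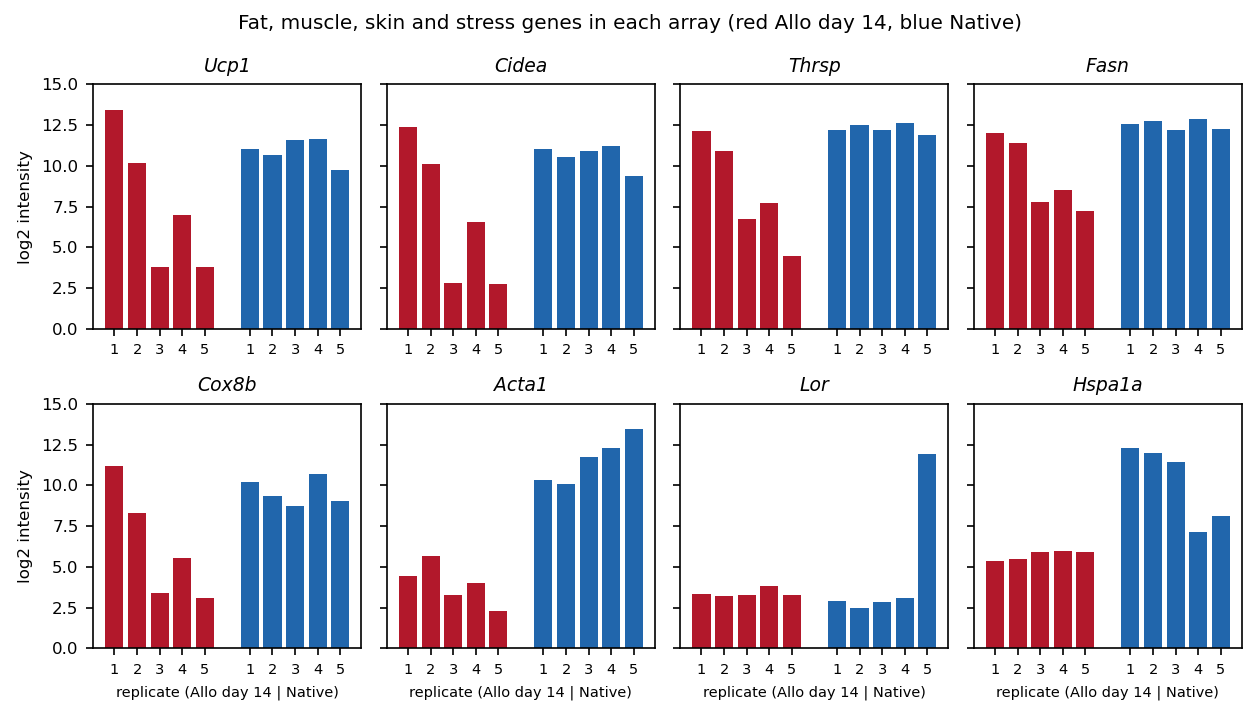
Log2 intensity of fat, muscle, skin and stress genes in each of the 5 Allo day 14 arrays and the 5 Native arrays (bars from 0). Ucp1 and Cidea are high in allograft replicates 1 and 2, Acta1 is high in all Native arrays, Lor in Native replicate 5 only, and Hspa1a in Native replicates 1 to 3.

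Of 42 tested genes of mitochondrial respiration 21 fell and none rose, with a median of -0.80. For none of the 42 were the Allo day 14 and Native values wholly apart, against 29.4% of all 7559 genes tested. Without the arrays that stood apart 32 fell, leaving out single arrays gave between 9 and 33, and with reference centring 9 fell. Cox8b, a subunit found in muscle and brown fat, had 11.19, 8.30, 3.38, 5.55 and 3.06 in Allo day 14 arrays, against 10.22, 9.34, 8.75, 10.73 and 9.07 in Native arrays. Replicates 1 and 2 were the highest of the allograft, as for Ucp1, and the part of fat in the values of this list was not tested. Fatty acid and sterol synthesis genes fell at 10 of 18 tested, with the fatty acid synthase Fasn at 12.05, 11.41, 7.81, 8.51 and 7.23 in Allo day 14 arrays, against 12.58, 12.75, 12.22, 12.89 and 12.27 in Native arrays. Replicates 1 and 2 were again the highest of the allograft. Among 23 tested genes of glycolysis and hypoxia 6 rose and 4 fell, with the lactate exporter Slc16a3 higher by 1.95 and the kinase Pdk1, which limits entry of pyruvate into mitochondria, by 1.57.

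Stress genes set some of the native samples apart. Hspa1a, an inducible heat shock protein, had 5.34, 5.48, 5.94, 5.95 and 5.92 in Allo day 14 arrays, against 12.30, 11.99, 11.43, 7.16 and 8.10 in Native arrays. It was therefore high in Native replicates 1 to 3 and nearer the allograft in the other 2. Of 14 tested genes of that list 5 fell and 1 rose. The part of sample handling in these values was not tested.

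The isografts of day 14 address which of these differences go beyond transplantation into a compatible recipient. Strain was not given, so other differences between the recipients of allografts and isografts cannot be told apart from the MHC mismatch. In this contrast the native arrays cancel, so it is the test of the difference between the changes in allografts and isografts. Of the same 12248 probe sets 2274 were called (18.6%), 1262 higher (10.3%) and 1012 lower (8.26%), and of 7559 genes 829 were higher (11%) and 767 lower (10.1%). All 9 cytotoxic genes, 21 of 23 interferon-gamma response genes and 21 of 23 mitosis genes were higher in Allo day 14 than in Iso day 14 arrays. Of the tested genes of these lists 5, 4 and 6 had passed the filter through the Allo day 14 arrays alone. In other lists fewer were higher, at 5 of 21 type I interferon genes (none lower), 3 of 9 neutrophil genes (1 lower) and 12 of 38 matrix genes (2 lower). Of 11 alternative macrophage activation genes 1 was higher and 2 were lower. Gzmb differed by 4.51 ± 0.28 (adjusted p = 1.39e-13) and Ubd by 4.8 ± 0.21 (adjusted p = 1.19e-17), nearly the whole of their differences from native trachea.

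Many epithelial genes were lower in allografts than in isografts. Against isografts, 17 of 20 secretory genes, 11 of 14 cilium genes and 22 of 31 junction genes were lower. Of 10 epithelial transcription factors 7 were lower and 1 higher, and of 20 basal genes 8 were lower and 1 higher, with Krt5 at -0.54 ± 0.59 (adjusted p = 0.605). Scgb1a1 averaged 6.76 ± 1.66 in Allo day 14 arrays and 13.61 ± 0.41 in Iso day 14 arrays (SD), and Foxa1 averaged 4.74 ± 0.73 in Allo day 14 arrays and 9.59 ± 0.54 in Iso day 14 arrays. Gland products differed between the genes. Dcpp1 averaged 4.53 in Allo day 14 arrays and 6.73 in Iso day 14 arrays, 2.20 ± 0.49 apart, whereas Dmbt1 averaged 2.8 in Allo day 14 arrays and 11 in Iso day 14 arrays, 8.20 ± 0.49 apart.

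Some large differences from native trachea had no called counterpart against isografts. Itgax averaged 7.24 in Allo day 14 arrays and 7.68 in Iso day 14 arrays (difference -0.44 ± 0.38, adjusted p = 0.491), and Mmp12 averaged 8.15 in Allo day 14 arrays and 9.01 in Iso day 14 arrays (-0.86 ± 0.45, adjusted p = 0.201). Ctss averaged 13.05 in Allo day 14 arrays and 12.52 in Iso day 14 arrays (0.54 ± 0.22, adjusted p = 0.0864). Nor were Arg1 (1.82 ± 0.95, adjusted p = 0.201), S100a8 (0.92 ± 0.66, adjusted p = 0.388) and Ifit3 (0.98 ± 0.58, adjusted p = 0.272) called against isografts. These p-values do not show that the grafts were alike. Of 14 smooth muscle genes 3 were lower in allografts than in isografts and 1 was higher. H2-Ea averaged 7.35 ± 0.35 in Allo day 14 arrays, 9.42 ± 0.31 in Iso day 14 arrays and 8.12 ± 0.21 in Native arrays, and the allograft was 2.07 ± 0.21 below the isograft (adjusted p = 5.02e-09). Elastin averaged 7.42 ± 0.46 in Allo day 14 arrays, 10.35 ± 0.26 in Iso day 14 arrays and 9.04 ± 0.73 in Native arrays, and the allograft was 2.93 ± 0.29 below the isograft (adjusted p = 2.8e-09).

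The rises that the naming rule put first included genes outside these groups. Rpgrip1, which encodes a protein of the connecting cilium of photoreceptors, had 10.66, 11.39, 11.16, 10.66 and 11.74 in Allo day 14 arrays, against 2.42, 3.38, 3.75, 2.45 and 4.17 in Native arrays. This was the largest rise, 7.89 ± 0.43 (adjusted p = 1.38e-15), and rests on 1 probe set. The other 3 of that gene averaged between 2.86 and 3.78 in Allo day 14 arrays and between 2.67 and 3.24 in Native arrays, below the filter. The same probe set averaged 10.18 and 10.51 in allografts of days 4 and 25 and 4.42, 4.43 and 3.53 in isografts of days 4, 14 and 25. C1qtnf3, a secreted relative of C1q, was between 10.28 and 11.57 in Allo day 14 arrays and between 3.65 and 5.23 in Native arrays (6.55 ± 0.39). Slc15a3, a lysosomal peptide transporter of immune cells, was higher by 5.75 ± 0.38. Rpgrip1 and Slc15a3 had passed the filter through the Allo day 14 arrays alone.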

How the data were processed

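Total RNA of mouse tracheas, grafted or native, was labelled as biotinylated cRNA and hybridised to expression arrays, per the labels' protocols. The deposited values are log2 intensities, and the submitters' processing notes name GCRMA 1.1.3, a method that corrects background and normalizes between arrays. Scanner files were not used here. Values ranged from 0.317 to 15.53, and depth has no meaning for arrays, so the number of arrays limits the precision. A gene-wise linear model with group means was fitted to all 35 arrays (28 residual degrees of freedom) with limma 3.58.1 in R 4.3.3, and p-values were adjusted by Benjamini-Hochberg over the 12248 probe sets kept. Errors are limma's SE unless SD is named. In a simulation on these probe sets the fit recovered 64% of 100 probe sets shifted by 1 log2 unit and 93% of 100 shifted by 2, with 13 false calls. All other probe sets were simulated without a difference, whereas 46.1% were called in the data. The cut-off set by the adjustment depends on that share, so these rates do not carry over to this comparison.

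Probe sets were named through the platform annotation, and a gene was represented by its single-gene probe set with the highest mean over the 10 arrays. Named genes were the 12 largest called rises and falls without overlap, from each list the 3 called members with the largest difference in its main direction and the 1 in the other, and 12 fixed genes. Genes named outside that rule (Cxcl10, Gbp2, Igtp, Irgm2, Mki67, Gch1, Krt10, Lor, Ucp1, Cidea and the Hox genes) were chosen after their values were seen. The groups compared, the members and the gene lists were chosen with earlier results of these data known. Summed levels of a list are sums of 2 to the power of the log2 values. Alternatives changed the filter, variance model, array weights, centring, replicate block, threshold and arrays left out.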

Additional observations from a re-analysis of the deposited data

Results flagged for a closer look

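For 176 named genes the 5 Allo day 14 and the 5 Native values were each checked for a value far from the other 4 (Dixon's ratio above 0.71). Of 352 such sets 27 held one, and chance gives about 1 in 20. In Allo day 14 replicate 1 Itgax (6.19), Itgb2 (9.78), Birc5 (6.33), Rrm2 (8.34) and Tgfbi (11.36) were low. In replicate 2 the muscle genes Tnnc2 (4.30) and Myh1 (6.36) and the keratin gene Krt10 (6.31) were high. In replicate 3 Il4ra was high, at 9.29. In replicate 4 Mlf1 (4.08), Sult1d1 (4.51), Des (5.35), Iyd (4.74) and Lor (3.81) were high, all close to background. In replicate 5 Lcn2 was high, at 10.20 against 7.12 to 7.48 in the other allografts, and Cd55 was low, at 5.77.

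In Native replicate 5 Lor (11.94 against 2.48 to 3.09), Fabp5 (12.76), Slc16a3 (5.85), Hoxd8 (5.79) and Lipf (13.75) were high, and Tppp3 (9.27), Atp1b1 (11.64) and Pon1 (8.64) were low. In Native replicate 3 Cd79b (5.40) and Hoxb4 (5.68) were high, and in Native replicate 2 Clec4e was, at 2.22. These values are those of the arrays as deposited.

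The change from native trachea differed between allografts and isografts of day 14 at 2274 of 12248 probe sets by limma's test of that difference.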

How the results depend on the processing

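Called probe sets in Allo day 14 against Native (5648 as reported, 2594 higher and 3054 lower) numbered 3173 (1450 higher, 1723 lower) with a floor of log2 7, fewer probe sets being tested, and 2931 (1394 and 1537) at 2-fold or more. Without a filter 4352 were higher, and with reference centring 1618 were lower and the share higher was 68.1%, against 55.7% with median centring, 53.8% with repeated quantile normalization and 45.9% as deposited. Array weights gave 7081, and the 2 groups alone 5189. Leaving out single arrays gave 4892 to 5892 calls, 2313 to 2691 higher and 2579 to 3263 lower. Leaving out both arrays that stood apart, an alternative chosen after seeing the data, gave 6108. Against Iso day 14 (2274, 1262 and 1012 as reported) the calls were 1396 (802 and 594) with the floor of log2 7, 1464 with 785 higher at an adjusted p under 0.01, 1319 (679 and 640) at 2-fold or more, and 1921 to 2263 without single arrays, 1010 to 1309 higher and 888 to 1040 lower. With the replicate block the counts were 5705 and 2321. Same-numbered samples of Allo day 14 and Native correlated between -0.292 and 0.185 in their deviations. Those of Allo day 14 and Iso day 14 correlated between -0.438 and 0.371. These values cannot show whether same-numbered samples share a batch. Of the named genes' recomputed values, 4035 kept direction and side of the threshold, 81 fell short of it, 10 newly passed it and 1 reversed, Grhl2, at -0.28 with the mean of its probe sets, whose directions differ. Calls lost for Cox8b, Cox7a1, Idh3a, Thrsp, Gpd1 and Hbb-b2 under several settings, for Fxyd1 without Allo day 14 replicate 4 (-0.90, limma adjusted p = 0.0641), for Ndrg1 with the mean of its probe sets, and for Kit with that mean and with reference centring; the cause was not tested.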

Other observations

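Position genes of the body axis also differed. Of 31 Hox cluster genes on the array 8 were tested, and they were singled out after their values had been seen. Hoxc8, which patterns the trunk behind the neck, had 7.66, 7.80, 8.46, 8.92 and 8.32 in Allo day 14 arrays, against 2.84, 2.06, 2.24, 2.98 and 3.22 in Native arrays (log2 difference 5.56 ± 0.44, limma adjusted p = 5.1e-12). Hoxc6, Hoxd8 and Hoxc4 were higher by 2.28, 1.87 and 1.42. Hoxc8 and Hoxc6 had passed the filter through the Allo day 14 arrays alone. Hoxa5, which patterns neck and airway, fell by 1.03, Hoxa3 by 0.72 and Hoxb3 by 0.41, none of which passed with reference centring, and Hoxb4 differed by 0.09 without passing. Hoxc8 averaged 8.23 in Allo day 14 arrays and 6.11 in Iso day 14 arrays, a difference of 2.12 ± 0.44 (adjusted p = 0.000542). Zic1, a zinc finger gene of the dorsal body axis, had 8.02, 8.95, 8.41, 8.42 and 8.80 in Allo day 14 arrays, against 2.46, 2.70, 2.49, 2.98 and 3.82 in Native arrays. It too had passed the filter through the Allo day 14 arrays alone. Its difference from Iso day 14 arrays, which averaged 5.02 ± 1.44, was 3.51 ± 0.54.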
